A study of Homo sapiens with 6 samples.

Results

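The SLC25 carriers are the main family of transport proteins of the mitochondrial inner membrane. Of 18806 deposited gene symbols, 45 began with SLC25A and a number and are described here, grouped by the substrate each protein is known for. A further 2 symbols of that form are not analysed here. Poly(A) RNA was sequenced from Mono-Mac-6 cells, which grow from a human monocytic leukaemia and carry the MLL-AF9 fusion gene. All libraries came from 1 clone of this line that makes Cas9, so a difference between groups adds to whatever is particular to that clone. A lentivirus brought in 1 guide RNA per group: sgNS as control, or sgMETTL1.3 or sgMETTL1.6, which both target METTL1. The deposited column names of all groups also hold the letters EV, which the labels do not explain. The METTL1 protein is the enzyme subunit that places N7-methylguanosine on tRNAs. Selection was the same in every group, with hygromycin B at 200 µg/ml and blasticidin at 10 µg/ml, and RNA was taken 8 to 10 days after the virus was added. Each group had 2 libraries, 6 in all, and the labels do not say whether these were grown separately: p-values here reflect library-to-library spread alone, and that spread may be technical.

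The inner membrane of the mitochondrion is closed to most metabolites, and SLC25 proteins exchange or import them one substrate class at a time. The ADP/ATP carriers trade ADP from the cytosol for ATP made in the matrix, and the phosphate carrier brings in the phosphate needed to make it. Other members move amino acids, citrate and other carboxylates, or cofactors that matrix enzymes need but that are made outside. In leukaemia cells these carriers link the citric acid cycle, nucleotide supply and glutathione to the cytosol.

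Values were TPM, the estimated share of transcripts corrected for length and scaled to 1000000 in each library, so levels can be compared between genes but the read depth is unknown. Genes averaging 1 TPM or more (10911 of them) were tested with limma on log2(TPM + 1), a scale that understates changes of low genes, and a Benjamini-Hochberg adjusted p under 0.05 over all of them was called. METTL1 itself stood at 15.4 and 13.9 TPM in sgNS, 18.3 and 16.6 TPM in the libraries labelled sgMETTL1.3 and 11.2 and 11.7 TPM in those labelled sgMETTL1.6. METTL1 mRNA was called higher in the libraries labelled sgMETTL1.3 (log2 0.24, limma, adjusted p = 0.011; 0.12 without sgNS replicate 2, 0.12 without sgMETTL1.3 replicate 1 and 0.057 with low genes kept). It was called lower in those labelled sgMETTL1.6 (-0.33, adjusted p = 0.0017). Since a Cas9 cut need not change mRNA, its level does not test whether the gene was cut or the protein lost. Of 10 myeloid markers 7 had a mean of at least 1 TPM, with LYZ at 9205.5 TPM or more in every library, whereas CD14, CSF1R and CD4, which mark monocytes, were under 1 TPM in all of them. The summed myeloid markers ranged from 11516 to 12081 TPM in sgNS, 11397 to 11473 in sgMETTL1.3 and 9811 to 10191 in sgMETTL1.6. LYZ made up most of each sum, so the sum says little of the other markers. MPO, FCGR1A, ITGAM and CD68 were lower in every guide library than in both controls, and CD33 overlapped them. SPI1 stood at 263 and 272 TPM in sgNS, 331 and 336 TPM with sgMETTL1.3 and 272 and 298 TPM with sgMETTL1.6. Of 13 markers of T, B, erythroid, epithelial and fibroblast cells, no value exceeded 2.67 TPM, and CD3D, CD3E, MS4A1 and HBB were listed at 0 in every library.

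In the control libraries the family was dominated by a few members. Of the 45 carriers 34 reached a mean of 1 TPM over all libraries and were tested, and 11 did not. The ADP/ATP carrier SLC25A5 had the highest level, 681 ± 6.60 TPM (SD, n = 2), followed by the phosphate carrier SLC25A3 at 375 ± 7.96 TPM and the ADP/ATP carrier SLC25A6 at 319 ± 13.3 TPM. These 3 genes held 58.6% of the summed TPM of the family in sgNS. SLC25A40 at 77.8 ± 3.46 TPM and the citrate carrier SLC25A1 at 75.8 ± 3.56 TPM were lower again and did not differ beyond their spread. In all, 3 members stood above 100 TPM, 24 between 10 and 100 TPM and 7 below 10 TPM, with a median of 31.9 TPM over the 34. Of the 11 members that were not tested, SLC25A21, SLC25A31 and SLC25A48 were listed at 0 TPM in every library. The highest single value of the other 8 (SLC25A2, SLC25A18, SLC25A27, SLC25A34, SLC25A41, SLC25A45, SLC25A47 and SLC25A53) was 0.96 TPM, for SLC25A34.

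**Figure D1:**
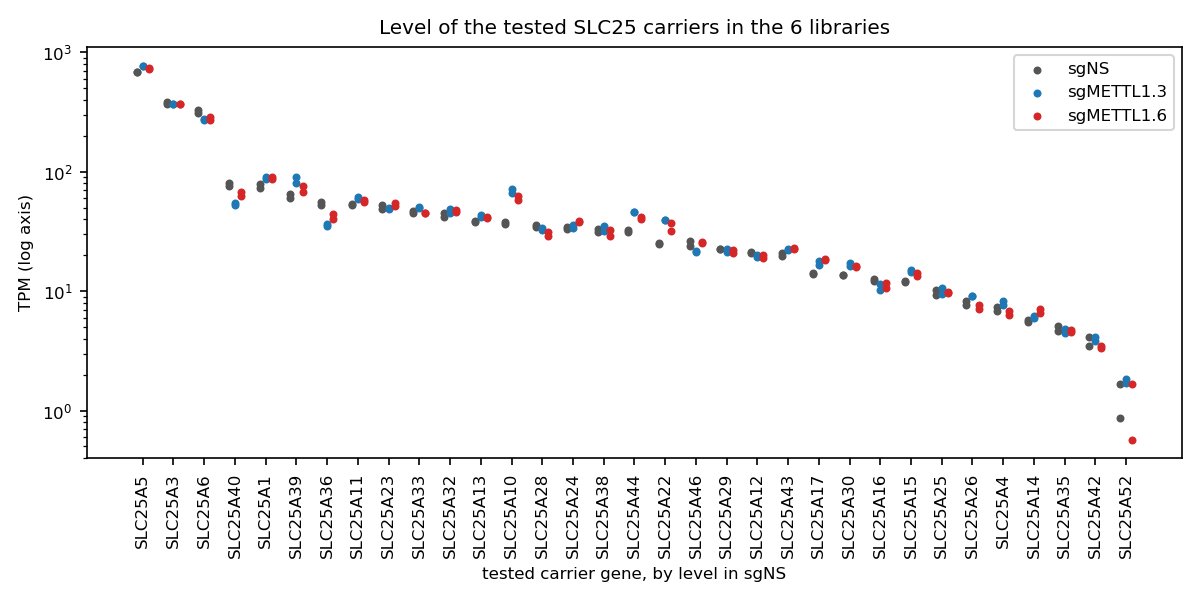
TPM (log axis) of 33 of the 34 tested carriers in each of the 6 libraries, ordered by their mean in sgNS; each point is 1 library and the colour is the guide. SLC25A5, SLC25A3 and SLC25A6 lie above 250 TPM in every library, and SLC25A52 is lowest.

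The main comparison set the 4 guide libraries, of either METTL1 guide, against both controls. The mitochondrial dicarboxylate carrier SLC25A10 rose most, and the glutamate carrier SLC25A22 and the branched-chain amino acid carrier SLC25A44 also rose. The pyrimidine nucleotide carrier SLC25A36 and the glutathione carrier SLC25A40 fell most. Of the 34 tested members 19 were called (55.9%), 14 higher and 5 lower, while 59.4% of all genes tested were called, 32.6% higher and 26.8% lower. The share called was thus near that of all genes. The median log2 change was 0.07 over the tested members and 0.02 over all genes tested, and the median size regardless of sign was 0.13 against 0.16. A call with a log2 change of at least 0.3 in either direction was made for 8 members (23.5%) and for 24.2% of all genes. In 21 of the 34 members all guide libraries lay on one side of both controls (14 above, 7 below), which was so for 60.2% of all genes tested.

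**Figure D2:**
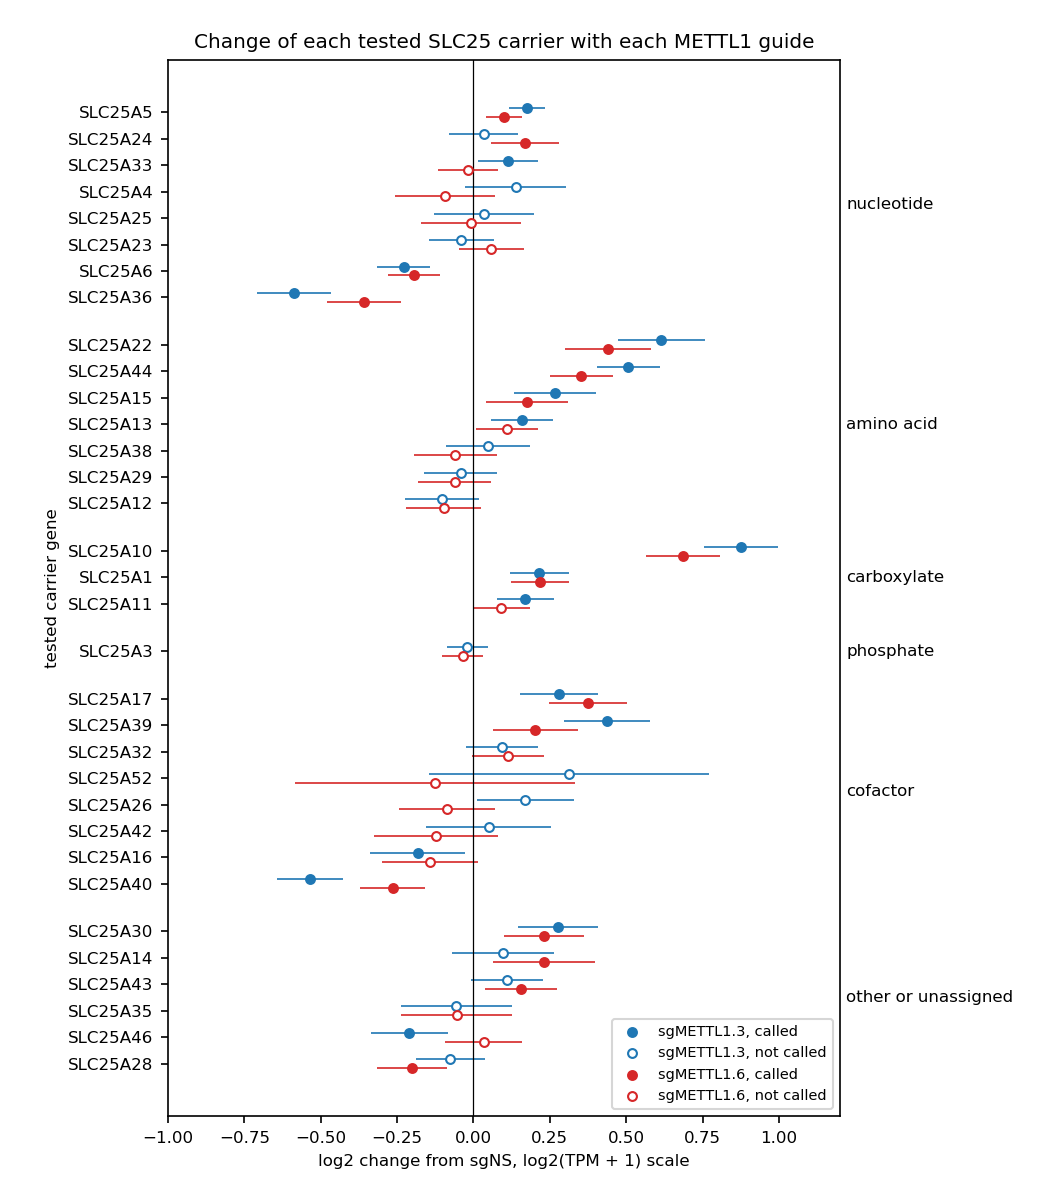
Log2 change from sgNS (log2(TPM + 1) scale) of 33 of the 34 tested carriers with sgMETTL1.3 and with sgMETTL1.6, grouped by substrate; filled points passed the test (adjusted p under 0.05), open points did not, and bars are 95% confidence intervals of the model. SLC25A10 lies farthest to the right with both guides and SLC25A36 farthest to the left.

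Of the genes with large changes, 3 are shown with the DNA in front of their start, because SLC25A39 and SLC25A40, which serve the same substrate, moved in opposite directions and SLC25A36 fell most. Each run is the 150 bases before the outermost start that RefSeq (GRCh38.p14) or GENCODE 29 gives, 5′ to 3′ on the gene's strand, and capitals mark a match to a searched motif.
SLC25A36, chr3:140941680-140941829, plus strand: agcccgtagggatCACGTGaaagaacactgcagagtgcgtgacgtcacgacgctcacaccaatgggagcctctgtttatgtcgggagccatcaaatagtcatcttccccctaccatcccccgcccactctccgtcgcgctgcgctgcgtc
SLC25A39, chr17:44324871-44325020, minus strand: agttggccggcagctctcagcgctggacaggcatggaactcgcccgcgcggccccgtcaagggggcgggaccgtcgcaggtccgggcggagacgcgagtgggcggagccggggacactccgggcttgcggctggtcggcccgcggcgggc
SLC25A40, chr7:87876361-87876510, minus strand: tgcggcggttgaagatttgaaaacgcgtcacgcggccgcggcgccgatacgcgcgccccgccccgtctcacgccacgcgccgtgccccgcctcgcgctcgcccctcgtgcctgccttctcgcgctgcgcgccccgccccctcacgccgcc

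The 3 windows differed in base composition. GC content was 77.3% each for SLC25A39 and SLC25A40 and 59.3% for SLC25A36. Over the promoters of tested members that RefSeq's table holds (38 windows of 29 genes) the median GC content of the 150 bases before the start was 69.7%, against 60% over all 35116 promoters. Motifs were searched on both strands from 250 bases before to 50 after the start. The E-box CACGTG, the site of MYC and related factors, stood in windows of 7 of the 29 members (24.1%; 18.4% of their windows) and in 7.26% of all promoters. These members were SLC25A13 and SLC25A22, which rose over both guides, SLC25A36, which fell, and SLC25A26, SLC25A33, SLC25A38 and SLC25A46, which were not called over both guides. TGATGNAA, the composite site of ATF4 and C/EBP factors, stood in 1 window, that of SLC25A11 (as TTCCATCA), and in 3.62% of all promoters. The palindromic NRF1 motif, named only, and TCAAGGTCA (ERR) were in no window of a tested member and in 1.24% and 0.353% of all promoters. CACGTG holds a CG pair, and the role of base composition in its share was not tested.

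Carriers of carboxylates exchange citric acid cycle intermediates with the cytosol. All 3 tested carboxylate carriers rose over both guides, and the fourth, SLC25A21, was listed at 0. Among all genes tested 32.6% were called higher. SLC25A10 (ENSG00000183048.11, chr17:81712236-81721016, plus strand), which exchanges malate or succinate for phosphate, stood at 38.1 and 36.2 TPM in sgNS, 65.9 and 72.1 TPM with sgMETTL1.3 and 57.8 and 63.0 TPM with sgMETTL1.6. Every guide library was above both controls, and the log2 change was 0.78 ± 0.049 (SE, limma, adjusted p = 2.8e-08). SLC25A1 (chr22:19175575-19178830, minus strand), which exports citrate for lipid synthesis, stood at 73.3 and 78.4 TPM in sgNS, 86.4 and 90.02 TPM with sgMETTL1.3 and 87.4 and 89.3 TPM with sgMETTL1.6. The guide libraries again did not overlap the controls, with a log2 change of 0.22 ± 0.039 (adjusted p = 0.00033). SLC25A11, the 2-oxoglutarate/malate carrier of the malate-aspartate shuttle, changed least of the 3 (log2 0.13, adjusted p = 0.0086, and 0.069 without sgNS replicate 1). With sgMETTL1.6 alone SLC25A11 was not called (log2 0.09, limma, adjusted p = 0.094). The summed TPM of the carboxylate carriers was 164 and 168 in sgNS, 211 and 223 with sgMETTL1.3 and 201 and 210 with sgMETTL1.6.

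Amino acid carriers rose or were not called. Of 7 tested members 4 rose and the other 3 were not called, with a median log2 change of 0.13. Among all genes tested 32.6% were called higher and 26.8% lower. SLC25A22 (ENSG00000177542.10, chr11:790475-798333, minus strand), which brings glutamate into the matrix, stood at 24.8 and 25.5 TPM in sgNS, 39.0 and 39.1 TPM with sgMETTL1.3 and 31.8 and 37.4 TPM with sgMETTL1.6. All 4 guide libraries were above the controls (log2 0.53 ± 0.057, SE, adjusted p = 4.5e-06), and the sgMETTL1.6 libraries were farther apart from each other than those of the other groups. SLC25A44 (ENSG00000160785.13, chr1:156193932-156212796, plus strand), reported to carry branched-chain amino acids, stood at 31.1 and 32.5 TPM in sgNS, 45.6 TPM in each sgMETTL1.3 library and 40.3 and 41.6 TPM with sgMETTL1.6. Its groups were separate from one another, with a log2 change over both guides of 0.43 ± 0.041 (adjusted p = 1.6e-06). SLC25A15, the ornithine carrier of the urea cycle, rose by a log2 change of 0.22 (adjusted p = 0.0031).

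The aspartate/glutamate carriers, which export aspartate and drive the malate-aspartate shuttle, did not move as one. SLC25A13 (chr7:96120220-96322147, minus strand) stood at 37.9 and 38.2 TPM in sgNS, 41.7 and 43.6 TPM with sgMETTL1.3 and 41.4 and 40.9 TPM with sgMETTL1.6. It rose by a log2 change of 0.13 ± 0.041 (limma, adjusted p = 0.012), a call lost without sgNS replicate 1 (adjusted p = 0.083) or replicate 2 (adjusted p = 0.057). With sgMETTL1.6 alone SLC25A13 was not called (log2 0.11, limma, adjusted p = 0.068). SLC25A12 (chr2:171784370-171999859, minus strand) stood at 21.2 and 20.9 TPM in sgNS, 19.9 and 19.2 TPM with sgMETTL1.3 and 20.1 and 19.1 TPM with sgMETTL1.6. All its guide libraries were below the controls, but the log2 change of -0.10 was not called (adjusted p = 0.090, 95% interval -0.21 to 0.004). It was called lower after median-ratio scaling (adjusted p = 0.037) and when ribosomal protein genes were left out (adjusted p = 0.034). SLC25A38, which brings in glycine for haem synthesis, had a log2 change of -0.006 with a 95% interval of -0.12 to 0.11, and SLC25A29, a carrier of basic amino acids, one of -0.05 (-0.16 to 0.052).

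Cofactor carriers moved both ways. Of 9 tested, 3 rose, 2 fell and 4 were not called, against 32.6% higher and 26.8% lower among all genes tested. SLC25A17 (chr22:40769630-40819399, minus strand), a peroxisomal member that carries coenzyme A and related cofactors, stood at 13.9 and 14.2 TPM in sgNS, 17.8 and 16.7 TPM with sgMETTL1.3 and 18.3 and 18.6 TPM with sgMETTL1.6. It was higher in all guide libraries (log2 0.33 ± 0.051, adjusted p = 0.00011).

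The mitochondrial glutathione carriers SLC25A39 and SLC25A40 changed in opposite directions. SLC25A39 (ENSG00000013306.15, chr17:44319625-44324870, minus strand) stood at 59.6 and 65.2 TPM in sgNS, 80.5 and 89.3 TPM with sgMETTL1.3 and 67.8 and 76.3 TPM with sgMETTL1.6. The lowest guide library lay just above the higher control, and the log2 change was 0.32 ± 0.056 (SE, limma, adjusted p = 0.00028). With sgMETTL1.6 alone it was 0.20 (adjusted p = 0.019) and the call was lost without sgNS replicate 1 (adjusted p = 0.18), without sgMETTL1.6 replicate 2 (adjusted p = 0.15), when low genes were not filtered (adjusted p = 0.12) and with no variance trend (adjusted p = 0.080). SLC25A40 (ENSG00000075303.12, chr7:87833568-87876357, minus strand) stood at 80.2 and 75.3 TPM in sgNS, 52.6 and 54.1 TPM with sgMETTL1.3 and 67.0 and 62.1 TPM with sgMETTL1.6. Its 3 groups did not overlap, and it fell by 0.40 on the log2 scale (SE 0.043, adjusted p = 4.4e-06). The coding sequences of this pair are 61.1% identical over aligned bases. The sum of both was 139.8 and 140.6 TPM in sgNS, 133 and 143 TPM with sgMETTL1.3 and 135 and 138 TPM with sgMETTL1.6. The sums with sgMETTL1.3 thus lay on either side of the controls, and those with sgMETTL1.6 lay below both controls. The ratio of SLC25A39 to SLC25A40 went from 0.743 and 0.866 in sgNS to 1.53 and 1.65 with sgMETTL1.3 and 1.01 and 1.23 with sgMETTL1.6.

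Of the other cofactor carriers, SLC25A32, which carries folate or FAD, was at 45.3 and 41.7 TPM in sgNS, 48.3 and 44.7 TPM with sgMETTL1.3 and 47.9 and 46.3 TPM with sgMETTL1.6. Its groups overlapped and it was not called (log2 0.10, adjusted p = 0.076), but it was called higher without sgNS replicate 1 (adjusted p = 0.042) or sgMETTL1.3 replicate 2 (adjusted p = 0.040). SLC25A26, which imports S-adenosylmethionine, the methyl donor, was at 8.24 and 7.61 TPM in sgNS, 9.05 and 9.02 TPM with sgMETTL1.3 and 7.66 and 7.14 TPM with sgMETTL1.6. It was not called over both guides (log2 0.04, 95% interval -0.095 to 0.18). The coenzyme A carrier SLC25A16 fell by 0.16 on the log2 scale (adjusted p = 0.039), a call lost without either sgNS library (adjusted p = 0.21 and 0.086), without sgMETTL1.3 replicate 2 (0.12) or sgMETTL1.6 replicate 2 (0.093), with quantile normalisation (0.071) and with no filter on low values (0.11). With sgMETTL1.6 alone SLC25A16 was not called (log2 -0.14, limma, adjusted p = 0.12). SLC25A42 (log2 -0.04) and SLC25A52 (log2 0.09, between 0.57 and 1.84 TPM in single libraries) were not called.

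**Figure D3:**
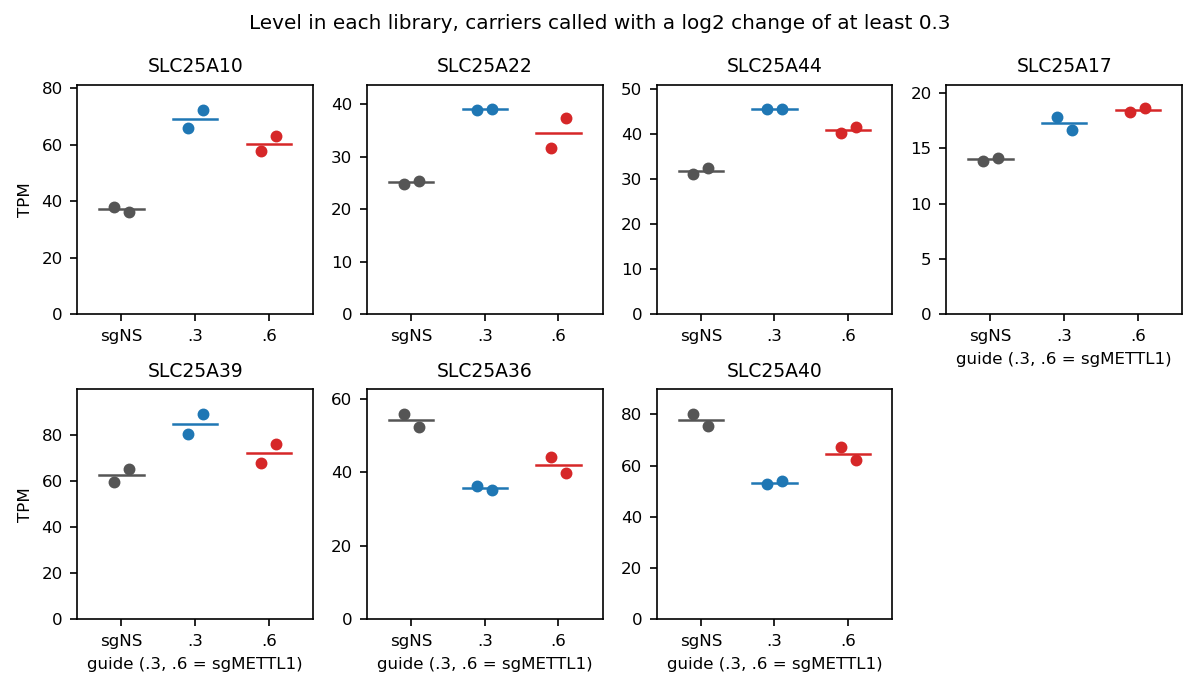
TPM in each library of 7 of the 8 carriers called over both guides with a log2 change of at least 0.3; points are libraries and lines are group means, with the guides marked by the ends of their names and each axis starting at 0. SLC25A36 and SLC25A40 are lower and the other 5 higher in all 4 guide libraries than in both controls.

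Nucleotide carriers held 51.2% of the family's summed TPM in sgNS. Of 8 tested, 1 rose, 2 fell and 5 were not called, with a median log2 change of 0.02. The shares over all genes tested were 32.6% higher and 26.8% lower. SLC25A5 (ENSG00000005022.5, chrX:119468400-119471319, plus strand), the ADP/ATP carrier of dividing cells, stood at 676 and 685 TPM in sgNS, 769.7 and 767 TPM with sgMETTL1.3 and 734 and 726 TPM with sgMETTL1.6. All guide libraries were above the controls and the log2 change was 0.14 ± 0.023 (SE, limma, adjusted p = 0.00024). With sgMETTL1.6 alone it was 0.10 (adjusted p = 0.0076), but 0.02 after quantile normalisation (adjusted p = 0.56) and 0.09 without sgNS replicate 1 (adjusted p = 0.062), and the call was also lost with no variance trend (adjusted p = 0.082). SLC25A6 (ENSG00000169100.13, chrX:1386152-1392724, minus strand), an ADP/ATP carrier gene in the pseudoautosomal region, stood at 309.7 and 329 TPM in sgNS, 269 and 275 TPM with sgMETTL1.3 and 269.9 and 288 TPM with sgMETTL1.6. It was below the controls in all guide libraries and fell by 0.21 on the log2 scale (SE 0.034, adjusted p = 0.00016). SLC25A4 (chr4:185143241-185150382, plus strand), the ADP/ATP carrier of heart and muscle, was at 7.31 and 6.87 TPM in sgNS, 8.18 and 7.63 TPM with sgMETTL1.3 and 6.36 and 6.81 TPM with sgMETTL1.6 and was not called over both guides (log2 0.02, 95% interval -0.12 to 0.17).

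The 3 ADP/ATP carriers together had 993 and 1021 TPM in sgNS, 1047 and 1049.6 TPM with sgMETTL1.3 and 1009.97 and 1021 TPM with sgMETTL1.6. SLC25A6 made up 31.2% and 32.2% of that sum in sgNS, 25.7% and 26.2% with sgMETTL1.3 and 26.7% and 28.2% with sgMETTL1.6, and SLC25A5 nearly all the rest. The coding sequences of SLC25A5 and SLC25A6 are 78.8% identical, and GENCODE 29 lists 9 pseudogenes named after SLC25A5 and 6 named after SLC25A6, so reads may be shared with these copies and the levels are uncertain to that extent.

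The pyrimidine nucleotide carriers also parted. SLC25A36 (ENSG00000114120.12, chr3:140941830-140980961, plus strand) stood at 55.9 and 52.4 TPM in sgNS, 36.2 and 35.1 TPM with sgMETTL1.3 and 44.2 and 39.96 TPM with sgMETTL1.6. The 3 groups did not overlap, and it fell by 0.47 on the log2 scale (SE 0.048, limma, adjusted p = 2.8e-06). SLC25A33, the other pyrimidine carrier, was not called over both guides (log2 0.05, 95% interval -0.038 to 0.13). With sgMETTL1.3 alone it was called higher (0.11, adjusted p = 0.047), but the call was lost with each of the 3 other scalings (adjusted p from 0.20 to 0.22), with no variance trend (0.067) and without sgNS replicate 1 (0.054), sgNS replicate 2 (0.28), sgMETTL1.3 replicate 1 (0.17) or sgMETTL1.3 replicate 2 (0.11). The ratio of SLC25A33 to SLC25A36 went from 0.842 and 0.855 in sgNS to 1.38 and 1.41 with sgMETTL1.3 and 1.03 and 1.13 with sgMETTL1.6. The ATP-Mg/phosphate carriers, which set the adenine nucleotide pool of the matrix in response to calcium, were not called over both guides (SLC25A23 at 0.01, SLC25A24 at 0.10 and SLC25A25 at 0.01 on the log2 scale). With sgMETTL1.6 alone SLC25A24 was called higher (0.17, adjusted p = 0.015), a call lost without sgNS replicate 2 (0.12) or sgMETTL1.6 replicate 1 (0.067).

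**Figure D4:**
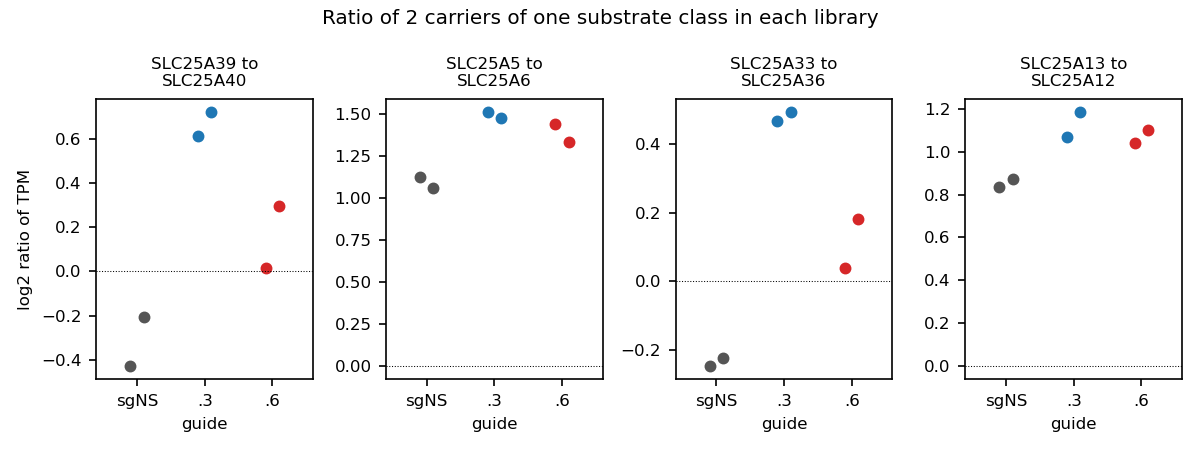
Log2 ratio of the TPM of 2 carriers of like substrate in each library: SLC25A39 to SLC25A40 (glutathione), SLC25A5 to SLC25A6 (ADP/ATP), SLC25A33 to SLC25A36 (pyrimidine nucleotides) and SLC25A13 to SLC25A12 (aspartate/glutamate); points are libraries and the dotted line marks equal levels. In each of the 4 panels all guide libraries lie above both controls. The ratios of SLC25A39 to SLC25A40 and of SLC25A33 to SLC25A36 cross 0 on the log2 scale. The pairs were chosen after their values were seen.

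The phosphate carrier SLC25A3 (ENSG00000075415.12, chr12:98593591-98606379, plus strand), which supplies ATP synthase, varied little. It stood at 369 and 380.3 TPM in sgNS, 371 and 368 TPM with sgMETTL1.3 and 367 and 365 TPM with sgMETTL1.6. Its log2 change of -0.03 was not called (adjusted p = 0.40), and its 95% interval was -0.085 to 0.030. Of 6 tested members outside these classes, 3 rose and 1 fell, against 32.6% higher and 26.8% lower among all genes tested. SLC25A30, an uncoupling protein relative, rose by a log2 change of 0.25 (adjusted p = 0.00097), SLC25A14, another relative, by 0.16 (0.049) and the orphan carrier SLC25A43 by 0.13 (0.028), while SLC25A28, which brings in iron, fell by 0.14 (0.018). SLC25A35 (-0.06) and SLC25A46 (-0.09), a protein of the outer membrane, were not called over both guides. With sgMETTL1.3 alone SLC25A46 was called lower (-0.21, adjusted p = 0.0073), a call lost without sgNS replicate 1 (0.10) or sgMETTL1.3 replicate 1 (0.053). The calls of SLC25A14, SLC25A43 and SLC25A28 were each lost without sgNS replicate 1 (adjusted p = 0.24, 0.25 and 0.057) and that of SLC25A30 was not. Without sgNS replicate 2 the adjusted p was 0.096 for SLC25A14 and 0.13 for SLC25A28, and without sgMETTL1.3 replicate 1 it was 0.064 for SLC25A43 and 0.10 for SLC25A14. Without sgMETTL1.3 replicate 2 it was 0.053 for SLC25A28 and 0.068 for SLC25A14, and without sgMETTL1.6 replicate 1 it was 0.12 for SLC25A14. Median-ratio scaling also ended the calls of SLC25A14 (adjusted p = 0.076) and SLC25A43 (0.053). The call of SLC25A14 was lost as well with a pseudocount of 0.1 (0.051), with no filter on low values (0.085) and without ribosomal protein genes (0.091). With sgMETTL1.3 alone SLC25A14, SLC25A43 and SLC25A28 were not called (limma, adjusted p = 0.30, 0.10 and 0.23). With sgMETTL1.6 alone each of them was called (0.023, 0.030 and 0.0062).

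Each guide was also compared with the same control libraries, so these comparisons are not independent of each other. With sgMETTL1.3, 18 of 34 members were called, 13 higher and 5 lower (58.5% of all genes tested were called, 34.3% higher and 24.2% lower). With sgMETTL1.6 it was 17, 13 higher and 4 lower (51% of all genes tested, 25.7% higher and 25.3% lower). SLC25A10 had a log2 change of 0.88 with sgMETTL1.3 and 0.69 with sgMETTL1.6, SLC25A22 one of 0.62 and 0.44 and SLC25A44 one of 0.51 and 0.35. SLC25A36 had -0.59 and -0.36, and SLC25A40 had -0.53 and -0.26. For SLC25A17 the values were 0.28 and 0.37.

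The direct comparison of sgMETTL1.6 with sgMETTL1.3, which does not use the controls for its estimate, called 9 of 34 members, 3 higher and 6 lower with sgMETTL1.6, and 23% of all genes tested, 7.23% higher and 15.8% lower. No member was called with a difference of at least 0.3, against 5.32% of all genes. The differences of the 8 named here were small, from 0.15 to 0.27 on the log2 scale regardless of sign. SLC25A40 (0.27, adjusted p = 0.0027), SLC25A46 (0.24, 0.011) and SLC25A36 (0.23, 0.012) were higher with sgMETTL1.6. SLC25A26 (-0.26, 0.025), SLC25A39 (-0.23, 0.021), SLC25A4 (-0.23, 0.044), SLC25A10 (-0.19, 0.029) and SLC25A44 (-0.15, 0.035) were lower. Leaving out sgMETTL1.3 replicate 1 left 4 called members, leaving out sgMETTL1.3 replicate 2 left 2 and leaving out sgMETTL1.6 replicate 1 left 3. The direction of the majority depended on scaling. The split was 4 higher and 1 lower after quantile normalisation, and all 4 called members were higher with median-ratio scaling and with ribosomal protein genes left out. Over all genes 789 were higher and 1721 lower in this comparison, 972 and 803 after quantile normalisation, 1102 and 809 with median-ratio scaling and 930 and 959 with ribosomal protein genes left out. SLC25A40 was the 1 member called under every alternative run.

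The carriers were set beside genes that handle them or their substrates. Carrier proteins reach the inner membrane through TOM, the pore complex of the outer membrane, small TIM chaperones and the TIM22 insertase. Of 16 genes of this import route, all tested, 12 rose and 3 fell over both guides, with a median log2 change of 0.29, against 32.6% higher and 26.8% lower among all genes. TOMM6 rose from 335 ± 4.54 TPM (SD, n = 2) in sgNS to means of 444 and 495 TPM with sgMETTL1.3 and sgMETTL1.6 (log2 0.48, limma, adjusted p = 9.5e-09), the receptor TOMM22 by a log2 change of 0.44 and the intermembrane space chaperone TIMM8A by 0.46. The members that fell were TIMM9 (-0.25), TOMM20 (-0.16) and AGK (-0.13). TIMM22 itself, the insertase channel, rose from 18.1 ± 1.15 TPM to means of 25.9 and 26.4 TPM (log2 0.51, adjusted p = 4.9e-06); it was named after its value was seen. Of the family's members under other names, MTCH2 (log2 0.36), MTCH1 (0.13) and UCP3 (0.21) rose, the uncoupling protein UCP2 was not called (-0.02) and UCP1 was listed at 0 TPM. The call of UCP3, at 2.58 to 3.49 TPM, was marginal (limma, adjusted p = 0.046). UCP3 was called neither with sgMETTL1.3 alone (adjusted p = 0.12) nor with sgMETTL1.6 alone (0.060). MTCH1 was not called with sgMETTL1.6 alone (adjusted p = 0.10).

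Of 22 other transporters of the mitochondrial membranes, 11 rose and 4 fell, with a median log2 change of 0.10, against 32.6% higher, 26.8% lower and a median of 0.02 over all genes. The porin VDAC3 (0.41), the ion exchanger LETM1 (0.42) and the transporter ABCB10 (0.41) rose with the lowest p, and MCUB, listed under its older name CCDC109B (-0.28), MICU2 (-0.16) and MICU3 (-0.29), all of the calcium uniporter, fell. Of 17 tested enzymes of the malate-aspartate shuttle, citrate export and the citric acid cycle, 8 rose and 5 fell (median log2 0.10), against the same 32.6% and 26.8% of all genes. The cytosolic aspartate aminotransferase GOT1 fell from 86.4 and 88.6 TPM in sgNS to means of 40.7 and 36.5 TPM (log2 -1.16 ± 0.038, SE, limma, adjusted p = 3.7e-11), whereas its mitochondrial partner GOT2 rose (0.21), as did the malate dehydrogenases MDH1 (0.20) and MDH2 (0.22); GOT2 and MDH1 were named after their values were seen. The next lowest p belonged to IDH1 (-0.34) and GLUD1 (-0.22), which fell, and OGDH (0.28), a subunit of the 2-oxoglutarate dehydrogenase, which rose.

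**Figure D5:**
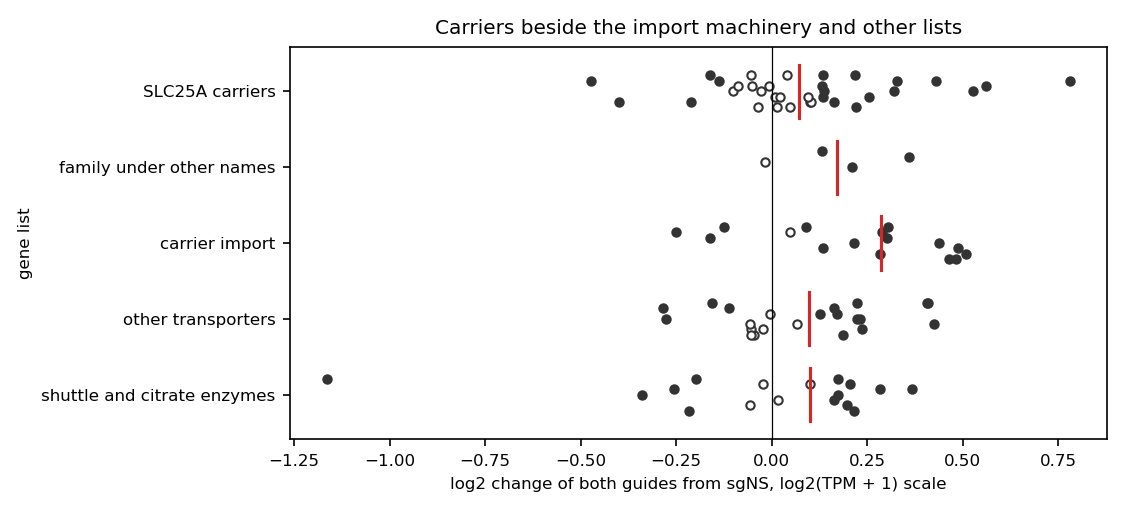
Log2 change over both guides (log2(TPM + 1) scale) of each tested gene of the SLC25A carriers and of the 4 comparison lists; filled points passed the test, open points did not, and red lines are medians. The import genes have a median of 0.29 and the carriers one of 0.07, and GOT1 is the point near -1.16.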

How the data were processed

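The authors deposited TPM in 1 table of 18806 gene symbols, with 1 column for each of 6 libraries. The submitters' processing notes name RSEM 1.2.31 and the build GRCh38. Neither aligner nor gene annotation was given in the sources used here. Columns were matched to samples by name, with 0 columns left unmapped. TPM keeps no depth, so no counting interval is given.

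The log2(TPM + 1) values of all 3 groups entered 1 linear model with a variance trend (limma 3.58.1, R 4.3.3), keeping genes that averaged 1 TPM or more, with Benjamini-Hochberg adjustment over all 10911. The code was tested on simulated data. The members, lists and tests were chosen with earlier results of these data known. Values in every library are given for members called with a log2 change of at least 0.3 and for carriers named by role (SLC25A51, so named, is not analysed here). A carrier and 2 genes of the lists are counted but not reported here by name. From each list the 3 genes with the lowest p that rose and the 3 that fell are named. Positions are from GENCODE 29, promoters from RefSeq (GRCh38.p14). Coding identity compares the longest reading frames of GENCODE 29 transcripts. Alternatives were other pseudocounts, filters and scalings, no variance trend, the replicate number as a block, leaving out each library and fitting only the groups compared.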

Additional observations from a re-analysis of the deposited data

Results flagged for a closer look

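The effects of the 2 guides differed by the direct test between them (limma, adjusted p under 0.05) for 9 carriers, of which 8 are given. The log2 difference of sgMETTL1.6 from sgMETTL1.3 was 0.27 for SLC25A40, 0.24 for SLC25A46, 0.23 for SLC25A36, -0.23 for SLC25A39, -0.26 for SLC25A26, -0.19 for SLC25A10, -0.15 for SLC25A44 and -0.23 for SLC25A4. With 23% of all genes called in the same comparison, the share of carriers (26.5%) is near that of all genes. The calls of all but SLC25A40 were lost under at least 1 alternative; those of the 6 carriers that were lower with sgMETTL1.6 were each lost under all 3 other scalings.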

How the results depend on the processing

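Over both guides, 13 of the 19 called members kept their call under every alternative run, and no called member changed direction in any comparison. The exceptions were SLC25A11, SLC25A13, SLC25A14, SLC25A16, SLC25A28 and SLC25A43. With single guides, 14 of 18 (sgMETTL1.3) and 10 of 17 (sgMETTL1.6) kept it. Leaving out 1 library gave 14 to 18 called members over both guides, 14 to 18 with sgMETTL1.3, 12 to 17 with sgMETTL1.6, 2 to 11 between the guides, and 4949 to 6456 called genes in all over both guides, against 6484 with all libraries. Between the guides, 9 members were called with all libraries, 4 without sgMETTL1.3 replicate 1, 2 without sgMETTL1.3 replicate 2, 3 without sgMETTL1.6 replicate 1, 2 with no filter on low values, 5 after quantile normalisation and 4 each after median-ratio scaling, without ribosomal protein genes and with no variance trend; the cause was not tested.

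METTL1 rose with sgMETTL1.3 (0.24) and fell with sgMETTL1.6 (-0.33), and its log2 change over both guides, -0.05, ranged from -0.12 to 0.022 when 1 library was left out, and was 0.022 without sgNS replicate 1 (adjusted p = 0.84). The replicate numbers are shared by the groups, but the labels do not say that they mark a shared batch: the differences between replicates 1 and 2 correlated at -0.005, 0.21 and 0.15 between pairs of groups over 10911 genes. With the replicate block, 21 members were called over both guides, 20 with each single guide and 14 between the guides. Calls over all genes tested also rose in each comparison. Over both guides they went from 3556 higher and 2928 lower to 3825 and 3151 with the block. Between the guides they went from 789 and 1721 to 1103 and 2512. SLC25A24 (adjusted p = 0.023) and SLC25A32 (0.017) were called higher over both guides with the block. Members under 1 TPM were not tested, and 2 libraries a group limit the precision of all others.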
